A study of Homo sapiens with 24 samples.

Results

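CXCL12, CXCR4 and ACKR3 are the chemokine CXCL12 and its receptors, 3 genes of the 22395 named genes measured here. They were taken by symbol from the platform annotation, ACKR3 being the current name of CXCR7. A gene's probe set was to be chosen by its mean signal over the 24 arrays, the highest being taken, but each gene had 1 probe set that named it alone. Those means were 5.37 for CXCL12, 2.20 for CXCR4 and 1.50 for ACKR3 on the log2 scale. In assembly GRCh38.p14 the protein-coding gene CXCL12 lies on chromosome 10 from 44370165 to 44385097. CXCR4 lies on chromosome 2 from 136114349 to 136118149, and ACKR3 on chromosome 2 from 236537122 to 236582354.

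Human breast cancer lines were profiled on 24 arrays, 3 for each of 8 groups. SUM159 cells lack the hormone receptors and HER2 and look mesenchymal, whereas T47D cells are luminal and carry the oestrogen receptor. Each line was given 5 µM of the small molecule ID8, known as an inhibitor of DYRK kinases, or the vehicle DMSO, for 72 hours. All cells were then stained with the Aldefluor reagent, which fluoresces where aldehyde dehydrogenase activity is high, and sorted into Aldefluor+ and Aldefluor- fractions. The groups of each line are therefore ID8 Aldefluor+, DMSO Aldefluor+, ID8 Aldefluor- and DMSO Aldefluor-, with 1 array from each of 3 experiments, numbered 2 to 4 for SUM159 and 5 to 7 for T47D. The labels call these separate experiments.

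CXCL12 is a secreted chemokine that stromal cells make in quantity in many tissues, and oestrogen is known to raise it in receptor-positive breast cancer cells. CXCR4 is a receptor that couples CXCL12 to inhibitory G proteins and cell migration, and it is known for its part in the spread of breast cancer to organs rich in CXCL12. ACKR3 is an atypical receptor that signals through arrestins, takes up CXCL12 and so lowers its level outside the cell.

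The promoters of the ligand and of the receptor CXCR4 are shown because these are the 2 genes whose signal changed with ID8. Windows of 300 bases came from RefSeq (GRCh38.p14), 250 before and 50 after the start of the gene, both on the minus strand, at chr10:44385048-44385347 and chr2:136118100-136118399. Of the 3 genes, 2 were in that table. Capitals mark matches to GGGCGG, the core of the Sp1 site, read here on the other strand as CCGCCC.
CXCL12: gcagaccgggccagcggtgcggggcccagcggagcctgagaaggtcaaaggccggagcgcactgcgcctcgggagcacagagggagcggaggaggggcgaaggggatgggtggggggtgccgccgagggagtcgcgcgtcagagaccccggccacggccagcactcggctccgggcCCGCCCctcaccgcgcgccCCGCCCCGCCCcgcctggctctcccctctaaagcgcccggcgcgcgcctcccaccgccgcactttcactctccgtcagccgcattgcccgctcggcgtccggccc
CXCR4: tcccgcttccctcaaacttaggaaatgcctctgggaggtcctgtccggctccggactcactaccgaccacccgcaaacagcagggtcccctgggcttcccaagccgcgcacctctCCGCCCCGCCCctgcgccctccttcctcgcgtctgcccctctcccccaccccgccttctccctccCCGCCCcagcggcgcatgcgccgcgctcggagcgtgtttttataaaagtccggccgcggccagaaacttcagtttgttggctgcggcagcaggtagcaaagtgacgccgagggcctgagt
Each window held 3 matches to GGGCGG on either strand, a motif found in 45.0% of 35116 windows of this length. GCGTG, a core of the hypoxia response element, matched 1 time in CXCR4 and 0 times in CXCL12 (36.5% of windows), and its other form ACGTG matched in neither (21.4%). TATAA matched 2 times in CXCR4, overlapping on opposite strands, and not in CXCL12 (20.4%). GGTCA, an oestrogen response half-site, matched 1 time in CXCL12 and not in CXCR4 (37.4%). Such matches describe letters, not bound sites.

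The values are log2 signals that the authors had adjusted for batch. In the values so adjusted, SUM159 and T47D means differed with an SD over genes of 0.118, so levels are compared within a line. The largest difference was 1.18, so a gene's level in 1 line may carry its level in the other. Signals called low here are low on this adjusted scale and need not lie near the array's background. All 7 measured mesenchymal markers were higher in SUM159 and all 8 luminal markers in T47D. Also higher in SUM159 were 6 of 7 fibroblast, 6 of 8 leukocyte and 3 of 4 endothelial markers. Such counts give direction and not size, and only in what the adjustment left of the differences between lines. A mean below 2, a low signal on this adjusted scale, was found for 49.0% of all named genes. Of 19 measured fibroblast, leukocyte and endothelial markers, 15 had such a mean. In 152 tests of them over the 8 comparisons limma called 0 (14 had an unadjusted p under 0.05), the smallest adjusted p being 0.0578. In experiment 4, the interquartile range of the DMSO Aldefluor+ array of SUM159 was 2.05, against 2.17 to 2.33 on the other arrays. Leaving that array out changed no call on the 3 genes. More RNA had been collected from SUM159 with ID8 (1363 to 5885 ng over 6 samples) than with DMSO (863 to 2310 ng), and less from T47D with ID8 (590 to 1303 ng) than with DMSO (1145 to 1887 ng). The numbers of cells collected differed in the same direction. In SUM159 Aldefluor- cells of experiment 2, both RNA and cell number were lower with ID8. The same amount, 10 ng, was amplified from each sample, and the part of RNA yield in the results was not tested.

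**Figure D1:**
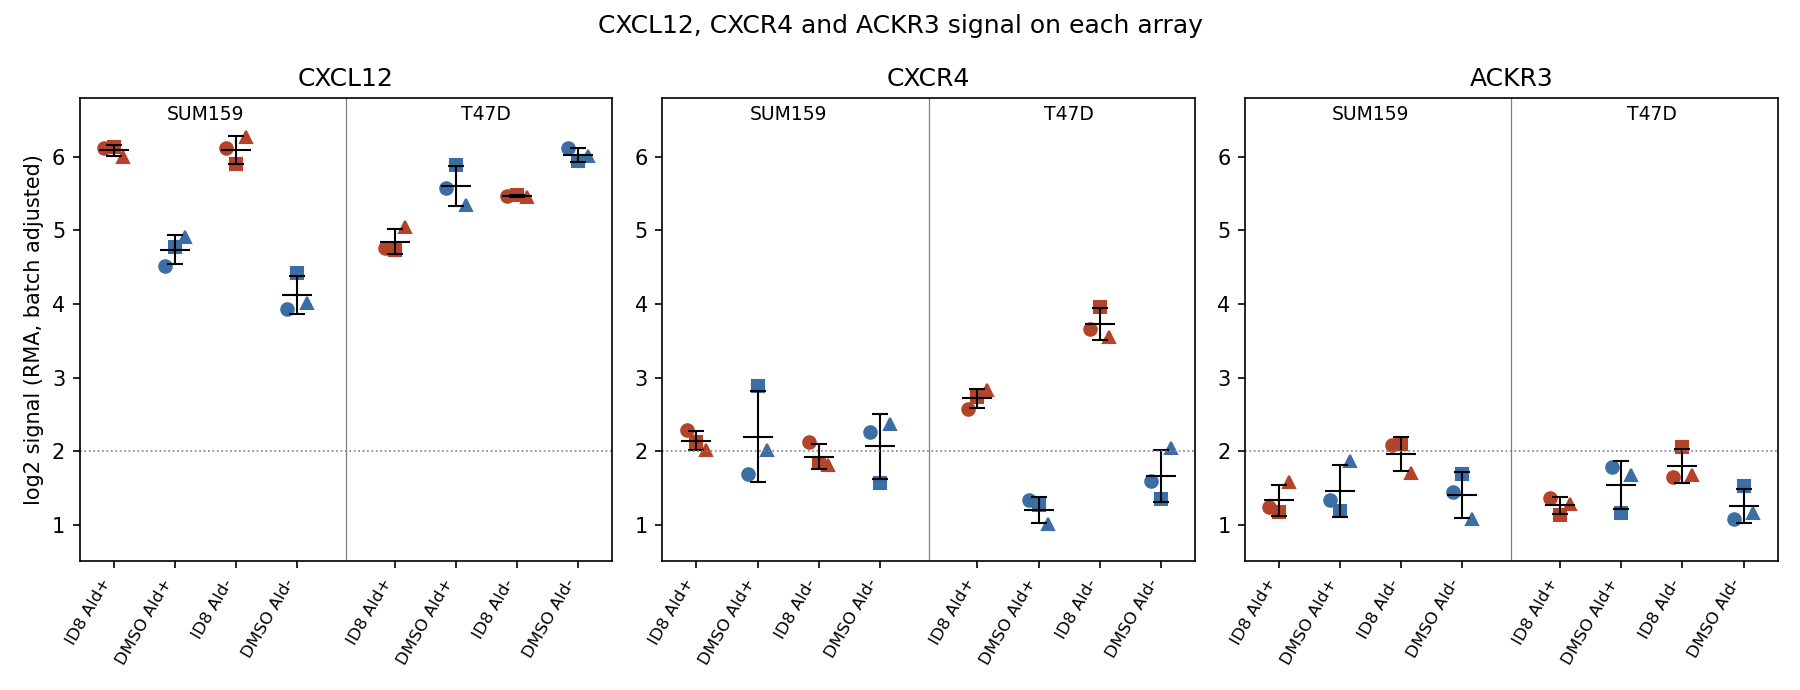
Log2 signal of each gene on every array (y axis), by group (x axis, Ald+ and Ald- for the Aldefluor fractions), red for ID8 and blue for DMSO. Circles, squares and triangles are experiments 2, 3 and 4 of SUM159 and 5, 6 and 7 of T47D, bars are mean ± SD (n = 3), and the dotted line is a log2 signal of 2. CXCL12 with ID8 lies above DMSO in SUM159 and below it in T47D in the same fraction, and CXCR4 with ID8 lies above DMSO in T47D.

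The first question is how the ligand responded to ID8. CXCL12 rose in both fractions of SUM159, by 2.55-fold in Aldefluor+ and 3.92-fold in Aldefluor- cells. In SUM159 Aldefluor+ cells, CXCL12 had log2 signals of 6.12, 6.13 and 6.00 with ID8, against 4.52, 4.78 and 4.91 with DMSO (experiments 2, 3 and 4). All ID8 arrays lay above all DMSO arrays. The log2 difference was 1.35 ± 0.16 (SE, n = 3 experiments, limma adjusted p = 0.00274), higher in 3 of 3 experiments, and 15 genes of the 22395 had a larger positive one. CXCL12 was the 1 of the 3 genes called here, where limma called 0.241% of all genes. Groups did not overlap for 1 of the 3 genes, as for 18.7% of all genes. Without experiment 2 the call was lost (adjusted p = 0.146), with a difference of 1.225. In sorted bulk cells, more expressing cells cannot be told apart from more RNA per cell.

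SUM159 Aldefluor- cells had CXCL12 signals of 6.12, 5.90 and 6.26 with ID8, against 3.93, 4.42 and 4.02 with DMSO. Here too the groups did not overlap, as for 2 of the 3 genes and 18.9% of all genes. The log2 difference was 1.97 ± 0.16 (SE, limma adjusted p = 1.46e-05), higher in 3 of 3 experiments, and 6 genes had a larger positive one. Again CXCL12 was the 1 of the 3 called, beside 0.277% of all genes, and it was called under each of the 14 alternatives.

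In T47D the ligand lay on the other side of its controls, without passing the test. T47D Aldefluor+ cells had CXCL12 signals of 4.76, 4.73 and 5.04 with ID8, against 5.58, 5.89 and 5.35 with DMSO (experiments 5, 6 and 7). The ID8 arrays all lay below the DMSO arrays, and groups did not overlap for 21.2% of all genes. The log2 difference was -0.76 ± 0.16 (SE, limma adjusted p = 0.0575), lower in 3 of 3 experiments. Without the experiment block the adjusted p was 0.00846, and over the 14 alternatives it ranged between 0.00846 and 0.495. T47D Aldefluor- cells had CXCL12 signals of 5.46, 5.48 and 5.45 with ID8, against 6.12, 5.94 and 6.02 with DMSO. These groups did not overlap either, as for 16.5% of all genes. The log2 difference was -0.56 ± 0.16 (SE, limma adjusted p = 0.467), lower in 3 of 3 experiments.

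The response of CXCL12 to ID8 differed between the lines in both fractions. The log2 response in SUM159 minus that in T47D was 2.11 ± 0.23 in Aldefluor+ cells (SE, limma adjusted p = 0.00108, with 0.33% of all genes called) and 2.53 ± 0.23 in Aldefluor- cells (adjusted p = 8.64e-05, with 0.067% called). Both calls were kept under all 13 alternatives that could be fitted. Within SUM159, the response in Aldefluor+ minus that in Aldefluor- cells was -0.62 ± 0.23 (limma adjusted p = 0.62, with 0.00447% of genes called). Within T47D it was -0.20 ± 0.23 (limma adjusted p = 0.965, with 0% called), and neither passed. Both values depended on single experiments: the first was -0.87 without experiment 3 and -0.36 without experiment 4, and the second was 0.049 without experiment 6 and -0.43 without experiment 7.

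CXCR4 rose with ID8 in both fractions of T47D, by 2.86-fold in Aldefluor+ and 4.17-fold in Aldefluor- cells. T47D Aldefluor+ cells had CXCR4 signals of 2.58, 2.74 and 2.84 with ID8, against 1.33, 1.27 and 1.01 with DMSO. The groups did not overlap, and the DMSO arrays were all below a signal of 2. The log2 difference was 1.52 ± 0.28 (SE, limma adjusted p = 0.0248), higher in 3 of 3 experiments and exceeded by 9 genes. CXCR4 was the 1 of the 3 genes called, beside 0.375% of all genes. Groups did not overlap for 2 of the 3, CXCR4 and CXCL12, as for 21.2% of all genes.

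T47D Aldefluor- cells had CXCR4 signals of 3.66, 3.96 and 3.55 with ID8, against 1.59, 1.35 and 2.05 with DMSO. The log2 difference, 2.06 ± 0.28 (SE, limma adjusted p = 0.0294), was the largest positive one of the 22395 genes in this comparison and was higher in 3 of 3 experiments. CXCR4 was again the 1 of the 3 genes called, in a comparison with 4 calls in all (0.0179%), and groups did not overlap for any of the 3, as for 16.5% of all genes. The other 3 are named after their values were seen: GLYATL3 and SAA1, an acute-phase protein, were higher by 1.48 and 1.65, and PTGES, a prostaglandin E synthase, was lower at -1.34. With adjusted DMSO signals this low, background may bear on the CXCR4 folds. How far the batch adjustment set these levels is unknown, and the folds should not be read as transcript ratios.

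The size of the CXCR4 difference held when experiments were left out, and its call did not. Without experiment 5, 6 or 7 the difference in T47D Aldefluor+ cells was 1.65, 1.54 or 1.36, with adjusted p of 0.215, 0.211 or 0.239. In Aldefluor- cells it was 2.06, 1.785 or 2.34, with adjusted p of 0.198, 0.338 or 0.244. Leaving out experiment 4 of SUM159, which enters through the shared spread, gave 0.0568 in Aldefluor- cells. With all probe sets tested, named or not, the adjusted p was 0.0579 in Aldefluor+ and 0.0704 in Aldefluor- cells.

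In SUM159 the receptor's arrays overlapped between treatments. SUM159 Aldefluor+ cells had CXCR4 signals of 2.29, 2.12 and 2.02 with ID8, against 1.69, 2.89 and 2.01 with DMSO, a log2 difference of -0.05 ± 0.28 (SE, limma adjusted p = 0.973). The SUM159 DMSO Aldefluor+ array of experiment 3, at 2.89, stood highest of the 12 SUM159 arrays, and without that experiment the difference was 0.30, against -0.38 without experiment 2. SUM159 Aldefluor- cells had 2.12, 1.84 and 1.81 with ID8, against 2.27, 1.56 and 2.36 with DMSO, a log2 difference of -0.14 ± 0.28 (adjusted p = 0.95) that was 0.069 without experiment 4. The response of CXCR4 in SUM159 minus that in T47D was -1.57 ± 0.39 in Aldefluor+ cells (SE, limma adjusted p = 0.104). In Aldefluor- cells it was -2.20 ± 0.39, the most negative of all genes, with an adjusted p of 0.0511 that did not pass. Over the alternatives that p ranged between 0.00473, without the experiment block, and 0.331.

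ACKR3 had a mean adjusted signal below 2 in each of the 8 groups and was called in none of the 8 comparisons. In SUM159 Aldefluor+ cells its signals were 1.24, 1.17 and 1.57 with ID8, against 1.33, 1.18 and 1.86 with DMSO, and the groups overlapped. In SUM159 Aldefluor- cells they were 2.09, 2.10 and 1.70 with ID8, against 1.45, 1.70 and 1.08 with DMSO, without overlap though the nearest values both round to 1.70. The log2 differences were -0.13 ± 0.23 and 0.55 ± 0.23 (SE, limma adjusted p = 0.906 and 0.55). The first was 0.13 without the DMSO Aldefluor+ array of experiment 4.

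The T47D fractions gave a like picture for ACKR3. T47D Aldefluor+ cells had signals of 1.37, 1.13 and 1.29 with ID8, against 1.78, 1.16 and 1.67 with DMSO. T47D Aldefluor- cells had 1.65, 2.06 and 1.68 with ID8, against 1.08, 1.52 and 1.16 with DMSO. The log2 differences were -0.28 ± 0.23 and 0.54 ± 0.23 (SE, limma adjusted p = 0.742 and 0.748). In both lines the response was thus negative in 3 of 3 experiments in Aldefluor+ cells and positive in 3 of 3 in Aldefluor- cells. The test of that difference did not pass, with -0.68 ± 0.33 in SUM159 (adjusted p = 0.719, and -0.42 without that array) and -0.82 ± 0.33 in T47D (adjusted p = 0.775).

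**Figure D2:**
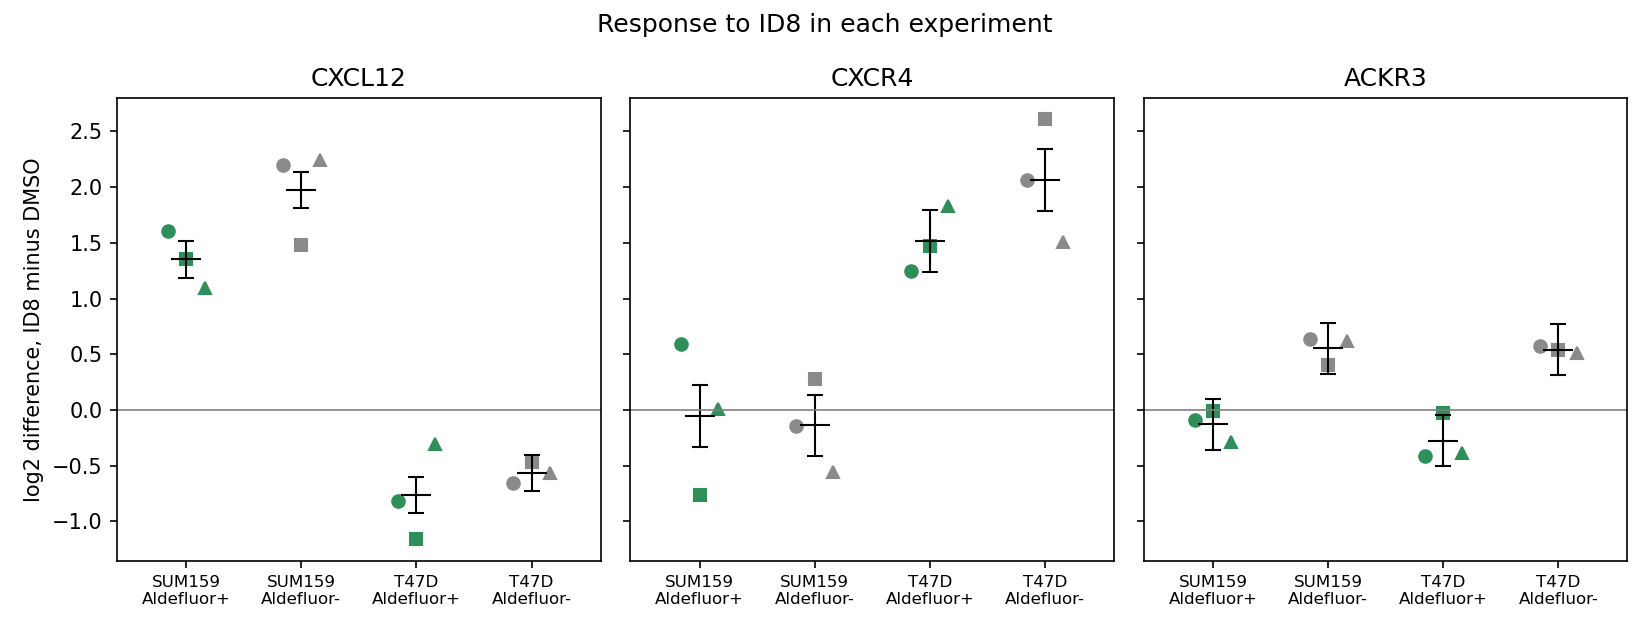
Log2 difference of ID8 minus DMSO (y axis) for each gene in each experiment, by line and fraction (x axis), with markers as for the arrays. Black bars are the model's difference ± SE. CXCL12 lies above 0 in SUM159 and below 0 in T47D in 3 of 3 experiments per fraction, and CXCR4 lies above 0 in T47D. ACKR3 lies below or close to 0 in Aldefluor+ and above 0 in Aldefluor- cells.

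Ligand and receptors can be set side by side as responses within each experiment, as a description with no test. The CXCL12 response minus the CXCR4 response was 1.41 ± 0.62 in SUM159 Aldefluor+ and 2.11 ± 0.83 in SUM159 Aldefluor- cells (log2, SD, n = 3 experiments), above 0 in all 6 pairs. In T47D it was -2.28 ± 0.31 in Aldefluor+ and -2.62 ± 0.51 in Aldefluor- cells, below 0 in all 6. The CXCR4 responses in it were -0.05 and -0.14 in the SUM159 fractions and 1.52 and 2.06 in the T47D fractions. Against ACKR3, the CXCL12 response was higher by 1.48 ± 0.185 and 1.42 ± 0.30 in the SUM159 fractions, in 6 of 6 pairs. In T47D the same measure was -0.48 ± 0.61 in Aldefluor+ cells, where 1 of 3 experiments was above 0, and -1.10 ± 0.12 in Aldefluor- cells, where none was. The Aldefluor+ value was -0.16 without experiment 6 and -0.77 without experiment 7.

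Across arrays the 3 genes moved together only weakly. With each line's mean removed, Pearson's r over 24 arrays was -0.22 for CXCL12 and CXCR4, 0.21 for CXCL12 and ACKR3, and 0.10 for CXCR4 and ACKR3. Within T47D (12 arrays) r was -0.415 for CXCL12 and CXCR4, and within SUM159 it was -0.50 for CXCR4 and ACKR3. Arrays of a group share treatment and fraction, and these values are descriptions.

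The next question is how the genes differed between the Aldefluor fractions, and none of the 3 passed in any of these 4 comparisons. In SUM159 with ID8, CXCL12 was at 6.09 ± 0.07 in Aldefluor+ and 6.095 ± 0.185 in Aldefluor- cells (SD, n = 3), a log2 difference of -0.01 ± 0.16 (SE, limma adjusted p = 0.997, with 0.201% of genes called) that was 0.12 without experiment 4. In SUM159 with DMSO it was at 4.74 ± 0.20 in Aldefluor+ and 4.12 ± 0.26 in Aldefluor- cells, a difference of 0.61 ± 0.16 (limma adjusted p = 0.322, with 0.0223% called), higher in 3 of 3 experiments. With ID8 the SUM159 fractions did not overlap for ACKR3 alone of the 3, as for 17.0% of all genes, at -0.63 ± 0.23 (adjusted p = 0.488). With DMSO they did not overlap for CXCL12 alone, as for 17.3%.

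In T47D the ligand and CXCR4 both lay lower in Aldefluor+ cells, without passing. With ID8, the log2 differences between the T47D fractions were -0.62 ± 0.16 for CXCL12 (SE, limma adjusted p = 0.167), -1.01 ± 0.28 for CXCR4 (adjusted p = 0.187) and -0.53 ± 0.23 for ACKR3 (adjusted p = 0.503), with 0.366% of genes called. Each was negative in 3 of 3 experiments with no overlap for 3 of the 3, as for 19.5% of all genes. Without the experiment block, a fit whose p-values tend to be too small, the first 2 passed (adjusted p = 0.0366 and 0.0432). Without experiment 3 of SUM159 the adjusted p of CXCR4 was 0.0494. Without experiment 6 the ACKR3 difference was -0.34. With DMSO they were -0.42 ± 0.16 for CXCL12 (limma adjusted p = 0.441), -0.46 ± 0.28 for CXCR4 (adjusted p = 0.699) and 0.28 ± 0.23 for ACKR3 (adjusted p = 0.801), with 0.152% called. Without experiment 7 the CXCR4 difference was -0.18, and ACKR3 was at 0.075 without experiment 5 and 0.60 without experiment 6. Here 2 of the 3, CXCL12 and CXCR4, did not overlap, as for 19.1% of all genes.

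**Figure D3:**
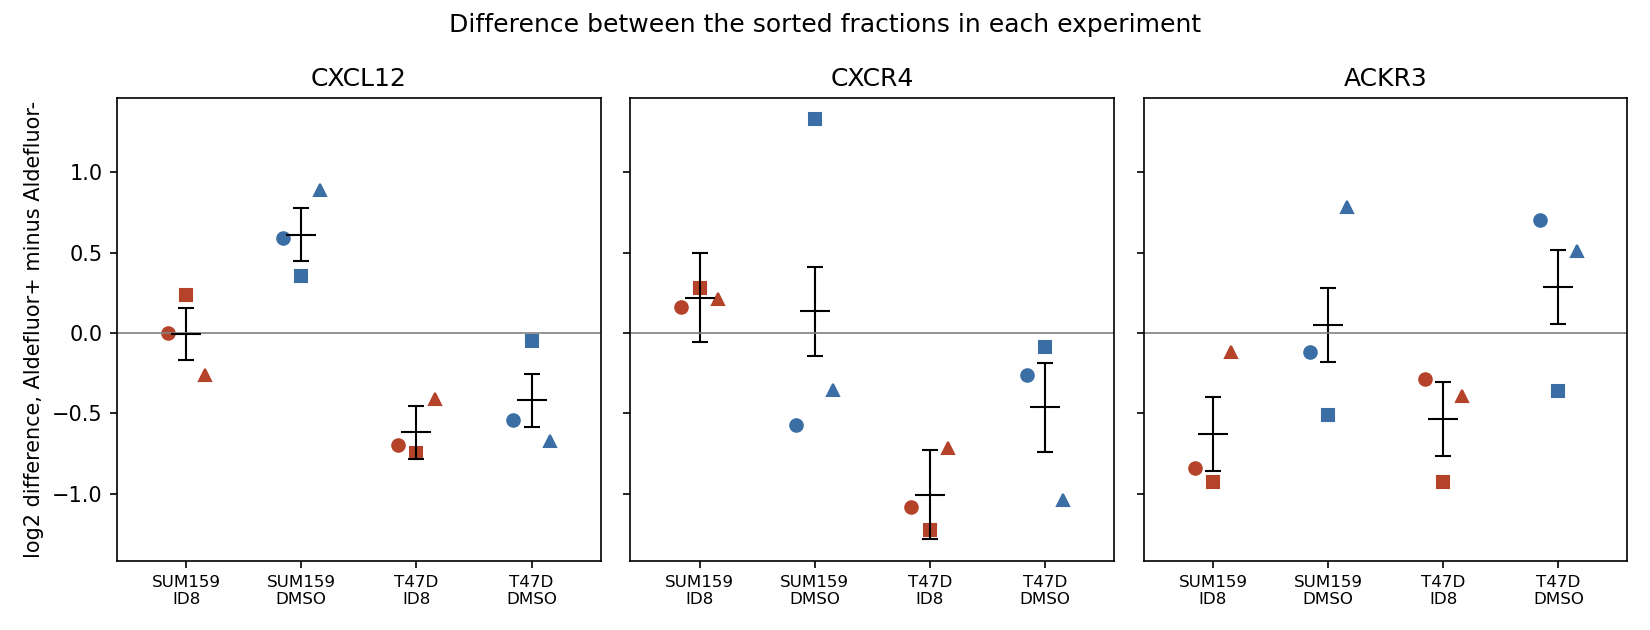
Log2 difference of Aldefluor+ minus Aldefluor- (y axis) for each gene in each experiment, by line and treatment (x axis), red for ID8 and blue for DMSO, with markers as for the arrays and black bars for the model's difference ± SE. With ID8 the T47D differences of all 3 genes lie below 0 in 3 of 3 experiments.

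Ordered by mean level within SUM159, CXCL12 ran from ID8 Aldefluor- (6.095) and ID8 Aldefluor+ (6.09), which overlapped, to DMSO Aldefluor+ (4.74) and DMSO Aldefluor- (4.12), each apart from its neighbour. Within T47D it ran from DMSO Aldefluor- (6.03) to DMSO Aldefluor+ (5.61), ID8 Aldefluor- (5.46) and ID8 Aldefluor+ (4.845), and only the middle pair overlapped. CXCR4 in T47D ran from ID8 Aldefluor- (3.725) to ID8 Aldefluor+ (2.72), DMSO Aldefluor- (1.66) and DMSO Aldefluor+ (1.20), with no overlap between neighbours. In SUM159 all CXCR4 neighbours overlapped (2.20 to 1.925), as did all ACKR3 neighbours in both lines (1.96 to 1.33 in SUM159, 1.795 to 1.25 in T47D). In the 8 comparisons, groups did not overlap for 16.5% to 21.2% of all genes. No step between fractions of the same treatment was called.

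The rest of the chemokine family was read beside the 3 genes. These were chosen with earlier results of the data known, so their rank in the family is a description and no support. Among 37 other measured chemokine ligands, the ID8 differences lay between -0.80 and 0.49 in SUM159 Aldefluor+ cells and between -0.385 and 0.58 in SUM159 Aldefluor- cells, all below those of CXCL12. Their medians were -0.03 and 0.06, beside -0.01 and -0.01 over all genes. In SUM159 Aldefluor+ cells 1 of the 37 was called, CCL24, an eotaxin, at 0.565 ± 0.17 with ID8 and 1.36 ± 0.10 with DMSO (SD, n = 3), a log2 difference of -0.80 (limma adjusted p = 0.0487) between low signals. In T47D Aldefluor+ cells 1 was called, CCL22, a ligand of CCR4, at 3.15 ± 0.315 with ID8 and 1.465 ± 0.60 with DMSO, a difference of 1.69 (adjusted p = 0.0219).

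Among 18 other chemokine receptors, the ID8 differences in T47D lay between -0.435 and 0.40 in Aldefluor+ and between -0.26 and 0.445 in Aldefluor- cells, all below those of CXCR4. ACKR1, an atypical receptor that binds inflammatory chemokines, was the 1 called in any of the 4 ID8 comparisons. In SUM159 Aldefluor- cells it was at 4.79 ± 0.03 with ID8 and 3.75 ± 0.06 with DMSO (SD, n = 3), a log2 difference of 1.04 ± 0.18 (SE, limma adjusted p = 0.024). In these families 27 of the 37 ligands and 14 of the 18 receptors had a mean signal below 2, beside 49.0% of all named genes.

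**Figure D4:**
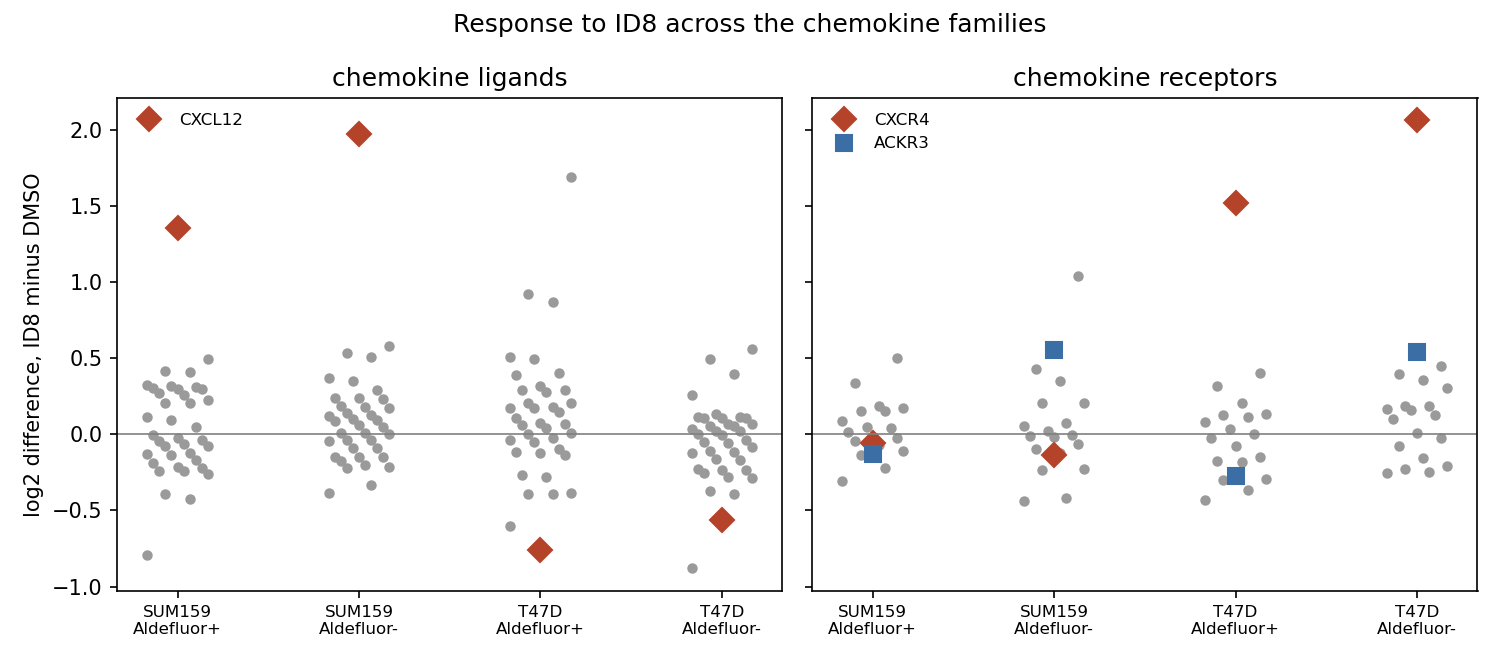
Log2 difference of ID8 minus DMSO (y axis) in the 4 line and fraction pairs (x axis) for other chemokine ligands (left, grey, 37 genes) and receptors (right, grey, 18 genes), with CXCL12, CXCR4 and ACKR3 marked. CXCL12 lies above all other ligands in both SUM159 fractions and CXCR4 above all other receptors in both T47D fractions. The marked genes were chosen with earlier results of these data known.

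Further genes were counted in 7 lists that held 127 genes beside the 3, of which 113 were measured. The lists take in the 37 chemokine ligands and 18 receptors above, whatever they bind. The shares called are thus not those of the CXCL12 axis alone. CCL24, ACKR1, CCL22 and CCL28 were called genes from those families. With ID8 in SUM159, 2 of 113 were lower in Aldefluor+ cells (1.77% called, beside 0.241% of all genes) and 1 was higher in Aldefluor- cells (0.885%, beside 0.277%). With ID8 in T47D, 4 were higher in Aldefluor+ cells (3.54%, beside 0.375%), and none was among the 4 genes called in Aldefluor- cells. The list medians with ID8 lay between -0.044 and 0.008, beside -0.011 to -0.001 over all genes. HSPG2, the matrix proteoglycan perlecan, was lower in SUM159 Aldefluor+ cells (2.48 ± 0.09 with ID8 and 3.05 ± 0.03 with DMSO, SD, limma adjusted p = 0.0487).

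In T47D Aldefluor+ cells, SDC2, a heparan sulphate proteoglycan of the cell surface, was higher by 0.68 ± 0.12 (SE, limma adjusted p = 0.0219). RGS16, which ends inhibitory G protein signalling, was higher by 0.94 ± 0.18 (adjusted p = 0.0338), at 4.44 ± 0.20 with ID8 and 3.49 ± 0.11 with DMSO (SD, n = 3). EPAS1, a hypoxia-inducible factor, was higher by 0.75 ± 0.14 (adjusted p = 0.0248). Over the 4 ID8 comparisons, the smallest adjusted p was 0.209 among 9 other ligands and partners of CXCR4 or ACKR3, and 0.16 among 16 kinases and GTPases downstream of CXCR4. Between fractions, 3 of the 113 were called (2.65%, beside 0.366% of all genes in that comparison), all higher in T47D Aldefluor+ cells with ID8: CCL22 at 2.04, CCL28 at 1.37 and STAT3, a transcription factor activated by JAK kinases, at 0.85. In the difference between lines 1 of the 113 was called (0.885%, beside 0.33% of all genes), RGS2, a brake on G protein signalling, whose response in SUM159 minus that in T47D was -1.72 ± 0.325 in Aldefluor+ cells (SE, limma adjusted p = 0.0346).

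The genes whose pattern was most like each member were ranked by Pearson's r over the 24 arrays with each line's mean removed, among genes with a mean of at least 2. For CXCL12 they were DFFA, an inhibitor of a caspase-activated nuclease (r = 0.83), the interleukin receptor chain IL7R (0.82), the protocadherin PCDH7 (0.815), the innate receptor TLR2 (0.81) and the zinc-finger factor WT1 (0.80). WT1 kept r = 0.89 within SUM159 and 0.80 within T47D (12 arrays each), whereas TLR2 had 0.95 and -0.02. WT1 stood at 3.26 ± 0.10 with ID8 and 2.66 ± 0.14 with DMSO in SUM159 Aldefluor+ cells, and at 2.74 ± 0.06 with ID8 and 3.37 ± 0.45 with DMSO in T47D Aldefluor+ cells (SD, n = 3).

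For CXCR4 they were SNCG, gamma-synuclein (0.85), SPEF2 (0.84), PLAAT4, a phospholipid acyltransferase (0.78), the homeobox factor DLX3 (0.77) and the small GTPase RAP2C (0.76). Within T47D these had r between 0.81 and 0.93, and within SUM159 between 0.10 and 0.805. For ACKR3 they were CAMP, the antimicrobial cathelicidin (0.73), ZNF26 (0.72), RWDD2A (0.71), SMIM11 (0.70) and CCDC142 (0.69), whose likeness rests on a low ACKR3 signal. These correlations are descriptions over arrays that share groups.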

How the data were processed

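Expression was measured on Affymetrix Human Gene ST arrays. The deposited values are log2 signals from RMA, per the series design text, which also says that the authors adjusted batch effects of experiment and processing with ComBat. The sources used here do not give versions, batches or protected covariates. Over genes, the SD of an experiment's mean about its line's mean was 0.0226 or less. How far the adjustment moved differences between groups is unknown.

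Of 53617 probe sets, 23871 had 1 gene symbol, 1842 several and 27904 none. The 22569 symbols that matched by gene number were updated to RefSeq (GRCh38.p14). The probe set with the highest mean stood for a gene. limma 3.58.1 in R 4.3.3 (lmFit, eBayes) was fitted to all 24 arrays, with a mean for each of 8 groups and an experiment term nested in each line. Benjamini-Hochberg adjustment ran over 22395 genes, with calls under an adjusted p of 0.05. SE refers to the model's estimate and SD to the spread over arrays. The script was tested on simulated data.

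Pairing comes from the labels, where a shared number is a shared experiment. Each array's deviations from its group mean were also correlated. For 36 pairs of 1 experiment, r lay between -0.408 and -0.266. For 72 pairs of different experiments and groups, it lay between 0.099 and 0.244. Values had already been adjusted for experiment, which makes the deviations within an experiment nearly cancel and so gives negative r there. These correlations therefore cannot check the pairing. P-values rest on each gene's residual spread after the experiment term, pooled over the 8 groups and moderated across genes. They do not measure the spread of a single comparison over its experiments. The number of arrays limits precision.

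The 3 genes, the lists and the rules were chosen with earlier results of these data known, so calls on them are not independent support. Named genes are the 3 members, list genes called over all genes, and per member the 5 most alike by correlation. Comparisons of a line share arrays. Alternatives were no experiment block, each line alone, genes with a mean of at least 2, all probe sets, quantile normalization, array median subtraction, trend and robust in eBayes, and leaving out each experiment or 1 array. The fit with no block ignores that the values were already adjusted for experiment, so its p-values tend to be too small.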

Additional observations from a re-analysis of the deposited data

Results flagged for a closer look

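The response of CXCL12 to ID8 differed between SUM159 and T47D by the test of the difference itself. In Aldefluor+ cells the log2 response was 1.35 in SUM159 and -0.76 in T47D, a difference of 2.11 ± 0.23 (SE, limma adjusted p = 0.00108). In Aldefluor- cells it was 1.97 and -0.56, a difference of 2.53 ± 0.23 (adjusted p = 8.64e-05). The sign was positive in 6 of 6 SUM159 pairs of arrays and negative in 6 of 6 T47D pairs. These pairs come from 3 experiments per line, each giving both fractions, so they are not 6 independent replicates.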

How the results depend on the processing

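The 36 results on CXCL12, CXCR4 and ACKR3 gave 486 values under 14 alternatives, of which 448 kept direction and side of the threshold, 15 changed sign without passing, 10 lost and 13 gained a call. For calls lost or gained, the cause was not tested except where the setting itself gives it. Without the replicate block, a fit whose p-values tend to be too small, these passed: CXCL12 for ID8 in T47D Aldefluor+ cells (-0.76) and between T47D fractions with ID8 (-0.62), and CXCR4 between those fractions (-1.01) and in its line difference in Aldefluor+ (-1.57) and Aldefluor- cells (-2.20). The first of these also passed with genes of a mean of at least 2 only (-0.76) and with trend and robust (-0.76), as did the CXCR4 line difference in Aldefluor- cells (-2.20 in both), which passed again after quantile normalization (-2.20) and median subtraction (-2.21). That line difference passed without experiment 3 of SUM159 too (-2.41, limma adjusted p = 0.0119), as did CXCR4 between T47D fractions with ID8 (-1.01). With all probe sets, more tests and so a stricter adjustment, CXCR4 in T47D lost its calls (1.52 and 2.06). Leaving out each experiment in turn gave 1.225 to 1.48 for CXCL12 in SUM159 Aldefluor+ cells, 1.36 to 1.65 and 1.785 to 2.34 for CXCR4 in T47D Aldefluor+ and Aldefluor- cells, and -1.155 to -0.90 for CXCR4 between T47D fractions with ID8. It gave -2.48 to -1.92 for the CXCR4 line difference in Aldefluor- cells. Leaving out an experiment or the array of narrower spread turned these signs, none of which had passed: CXCL12 between SUM159 fractions with ID8 (-0.13 to 0.12, and 0.018 after quantile normalization) and in its T47D response between fractions (-0.43 to 0.049), CXCR4 with ID8 in SUM159 Aldefluor+ (-0.38 to 0.30) and Aldefluor- cells (-0.35 to 0.069), between SUM159 fractions with DMSO (-0.46 to 0.49) and in its SUM159 response between fractions (-0.24 to 0.65), and ACKR3 with ID8 in SUM159 Aldefluor+ cells (-0.19 to 0.13), between SUM159 fractions with DMSO (-0.31 to 0.33) and in its line difference in Aldefluor- cells (-0.028 to 0.088). Calls in the 7 gene lists over 8 comparisons numbered 10, against 31 without the block, 3 with all probe sets, 1 with each line alone and 1 to 7 without an experiment. The 8 differences of ligand minus receptor response moved by less than 1 SD and kept their sign, though CXCL12 minus ACKR3 in T47D Aldefluor+ cells, whose SD of 0.61 exceeds its size, lay between -0.77 and -0.16.

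Calls over all genes for ID8 were 54 in SUM159 Aldefluor+ cells (397 without the block, 3 to 49 without an experiment, 17 to 139 otherwise), 62 in SUM159 Aldefluor- (225, 8 to 58, 22 to 91), 84 in T47D Aldefluor+ (530, 1 to 91, 40 to 163) and 4 in T47D Aldefluor- (35, 0 to 3, 0 to 9). Between fractions they were 45 in SUM159 with ID8 (208, 5 to 32, 16 to 61), 5 with DMSO (88, 2 to 3, 2 to 11), 82 in T47D with ID8 (325, 14 to 81, 65 to 117) and 34 with DMSO (242, 5 to 36, 24 to 70). For line differences they were 74 in Aldefluor+ (582, 15 to 64, 49 to 232) and 15 in Aldefluor- cells (82, 5 to 13, 14 to 29). For fraction differences of the response they were 1 in SUM159 (36, 0 to 1, 1 to 5) and 0 in T47D (4, 0 to 0, 0 to 0), where 1328 genes had an unadjusted p under 0.05. Counts without the block rest on p-values that tend to be too small. No second probe set named any of the 3 genes, so that alternative was not run, and line differences have no value with each line fitted alone. Low adjusted signal limits ACKR3 throughout and CXCR4 with DMSO.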
